A study of Sus scrofa with 8 samples.

Results

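Complex I genes of the nuclear genome were examined in left ventricular tissue of 8 pigs from a gene-edited model of long QT syndrome. They were taken as every gene whose symbol begins with NDUF and which had at least 10 normalized counts in at least 4 of the 8 libraries. All 42 NDUF genes of the table met this minimum, out of 14718 genes in all and 11660 genes that met it. Levels are normalized counts, in which the reads of each library are divided by a size factor of that library. The wild type (WT) group held pigs 1, 2, 4 and 5 (WT replicates 1 to 4). The mutant group held pigs 6, 7 and 8, labelled with a KCNH2 mutation, and pig 9, whose label has KCNH3 in place of the KCNH2 of the series design (mutant replicates 1 to 4). KCNH2 encodes a cardiac potassium channel that carries repolarizing current. The labels give no allele, zygosity, strain, age, sex or treatment for these animals, and all 8 samples are bulk tissue. Values of a group are listed below in the order of its replicates, 1 to 4.

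Complex I, or NADH:ubiquinone oxidoreductase, is the largest enzyme of the respiratory chain. It passes electrons from NADH through a flavin and a row of iron-sulfur clusters to ubiquinone and couples this to proton pumping across the inner mitochondrial membrane. Its matrix arm carries the redox centres, and its membrane arm carries the pumping subunits, which the mitochondrial genome encodes. The nucleus encodes the core subunits of the matrix arm, the accessory subunits that surround the core, and the assembly factors that are needed to build the enzyme but are absent from it once finished. Heart muscle depends on this enzyme for most of its ATP and expresses its genes at high levels.

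The libraries held 15.9 to 22.4 M reads (M, 1e6 reads), but the part left for nuclear genes was uneven. The 13 protein genes of the mitochondrial genome took 33.5%, 31.7%, 87.9% and 65.2% of the reads in the WT libraries and 15.9% to 27.5% in the mutant libraries. WT replicates 3 and 4 thus kept 2.53 and 7.53 M reads of nuclear genes, against 11.5 to 16.2 M in the others. An NDUF gene had a median of 411 reads in WT replicate 3 and of 1002 to 4271 reads in the other libraries, so counting error was largest in WT replicate 3. The part of the mitochondrial share in the values below was not tested. The tissue label was borne out by 8 of 8 cardiomyocyte markers, with summed normalized counts of 476212 to 554910 in WT and 520855 to 724416 in mutant libraries. Markers of fibroblasts, endothelium, smooth muscle and macrophages were present too, all above 0. In bulk tissue fewer cells of a type and less RNA per cell cannot be told apart. Replicate numbers are names only, and a p-value here covers no more than the spread among these 8 samples, which have no stated litter or batch.

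No nuclear complex I gene was called as different between mutant and WT ventricles. Of the 42, 29 had a higher and 13 a lower mean log2 level in mutants, with a median log2 difference of 0.23 (mutant minus WT; range -0.61 to 1.04). The median over all 11660 genes tested was 0.12, with 6629 genes higher. At an adjusted p under 0.05 over all genes, limma called 0 of the 42, as it did 0% of all genes. At an unadjusted p under 0.05 it took 4 as higher (9.52%, against 7.06% of all genes) and 2 as lower (4.76%, against 6.8%). Every mutant value lay above every WT value for 3 members (7.14%, against 6.17% of all genes) and below for 2 (4.76%, against 5.22%). These shares lie near the background. Without mutant replicate 4, the pig labelled KCNH3, the median log2 difference was 0.22 and limma called 0 members. It took 2 at an unadjusted p under 0.05 (4.76%, against 7.90% of all genes), where all 8 libraries gave 14.3% and 13.9%. DESeq2 on the recovered reads called 0 of the 42, although it called 4.56% of all genes, and edgeR called 0. At an unadjusted p under 0.05 DESeq2 took 6 members (4 higher, 2 lower; 14.3%, against 18.5% of all genes) and edgeR 4 (3 higher, 1 lower; 9.52%, against 14.6%). In the authors' deposited table, 0 of the 42 are called against 4.54% of all genes, and the smallest adjusted p among them is 0.0747, for NDUFAF1. The standard errors of the log2 differences in limma were 0.23 to 0.65, so a change of small size would not have been detectable in most members. Larger changes could be missed too, since the smallest adjusted p in limma over all genes was 0.142. NDUFS1 with a log2 difference of 1.04 had an adjusted p of 0.290 in limma. The mitochondrial gene ND1 with one of -3.44 had 0.156.

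**Figure D1:**
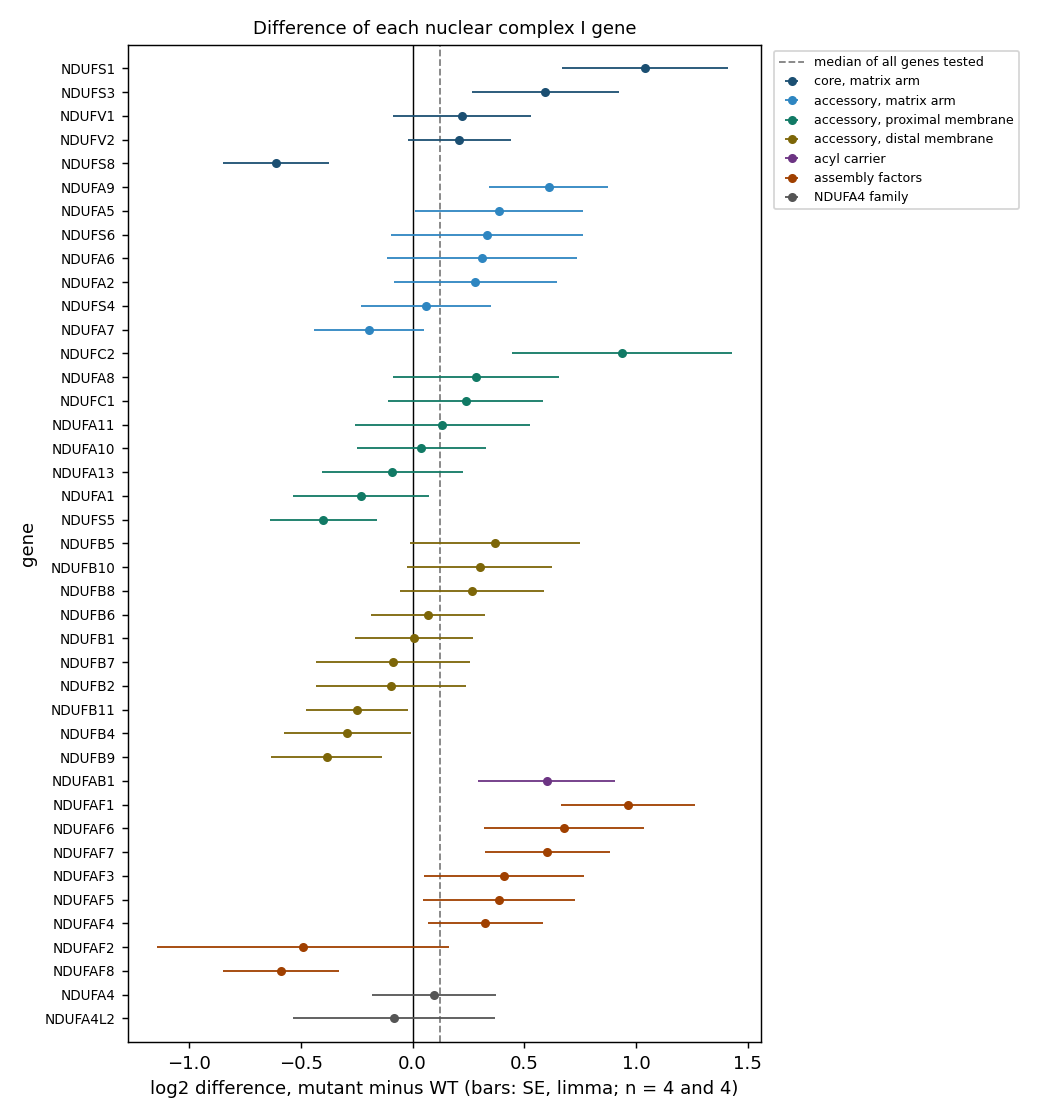
Log2 difference (mutant minus WT, horizontal axis) of 41 of the 42 genes, grouped by role, with standard errors from limma (4 WT and 4 mutant libraries) and the median of all genes tested as a dashed line at 0.12. NDUFS1, NDUFAF1 and NDUFC2 lie farthest right at 1.04, 0.97 and 0.94, NDUFS8 lies farthest left at -0.61, and none passed the adjusted threshold.

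The 6 measured core subunits of the matrix arm differed in direction. NDUFS1, the largest core subunit, which carries iron-sulfur clusters close to the site of NADH oxidation, had 5228, 3858, 3706 and 1475 normalized counts in the WT pigs and 7836, 6158, 6069 and 6744 in the mutant pigs. All 4 mutant libraries lay above all WT libraries, with a log2 difference of 1.04 ± 0.37 (SE; adjusted p = 0.290). It was 0.66 without WT replicate 4.

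NDUFS8, which holds the iron-sulfur clusters next in line before the ubiquinone site, went the other way. It had 5688, 5014, 6274 and 4665 normalized counts in the WT pigs and 2803, 4132, 4184 and 3156 in the mutant pigs. Here all mutant libraries lay below all WT libraries, with a log2 difference of -0.61 ± 0.24 (SE; adjusted p = 0.313). NDUFV1, the flavin-bearing subunit that oxidizes NADH, had 3222 to 6617 normalized counts in WT and 3578 to 6566 in mutant libraries, and the groups overlapped almost fully (log2 difference 0.22 ± 0.31 SE). The core subunits NDUFS3 and NDUFV2 had log2 differences of 0.59 and 0.21. NDUFS7, NDUFV3, NDUFA3, NDUFA12 and NDUFB3 are not among the 42 NDUF symbols of the deposited table and so were not analysed here.

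**Figure D2:**
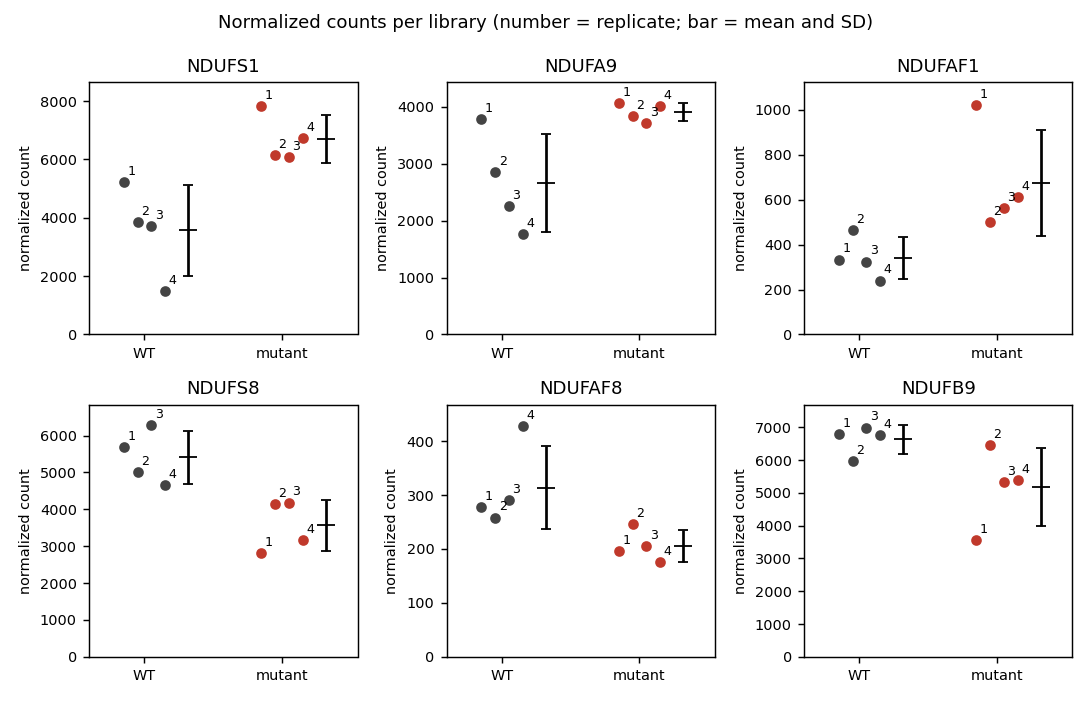
Normalized counts (vertical axis, from 0) of 6 complex I genes in each WT (grey) and mutant (red) library, numbered by replicate, with the mean and SD of each group of 4 as a black bar. NDUFS1 and NDUFAF1 do not overlap between groups and are higher in mutants, NDUFS8 and NDUFAF8 do not overlap and are lower, and in NDUFA9 and NDUFB9 1 library of a group reaches the other group.

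As a description, NDUFS1 and NDUFS8 were also set against each other within each library, where the scaling between libraries drops out. The ratio of NDUFS1 to NDUFS8 normalized counts was 0.919, 0.769, 0.591 and 0.316 in the WT pigs and 2.80, 1.49, 1.45 and 2.14 in the mutant pigs. Its mean was 0.649 ± 0.259 in WT and 1.97 ± 0.635 in mutants (SD, n = 4). The ratio of 2 assembly factors described below, NDUFAF1 to NDUFAF8, was 0.561 to 1.80 in WT and 2.04 to 5.22 in mutants. The pairs were chosen for their opposite, non-overlapping levels, which by arithmetic keep the groups apart in the ratio, so the ratios add no support. Transcript length, which is the same in each library, bears on the size of a ratio but not on its change.

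Among 7 measured accessory subunits of the matrix arm, 6 were higher and 1 lower in mean, with a median log2 difference of 0.31 and 0 called. NDUFA9, which sits where the matrix arm meets the membrane arm, had 3775, 2852, 2258 and 1759 normalized counts in the WT pigs and 4058, 3838, 3714 and 4005 in the mutant pigs. Its mutant libraries lay close together (3904 ± 157 SD, n = 4, against 2661 ± 867 in WT), and WT replicate 1 reached into their range (log2 difference 0.61 ± 0.27 SE; adjusted p = 0.349). NDUFA5, NDUFS6, NDUFA6, NDUFA2 and NDUFS4 had log2 differences of 0.06 to 0.39, and NDUFA7 had one of -0.19. NDUFAB1, the mitochondrial acyl carrier protein, which is both a complex I subunit and a cofactor of fatty acid and iron-sulfur cluster synthesis, had 3415, 1922, 2020 and 1214 normalized counts in WT and 3223, 3103, 3032 and 2814 in mutant libraries. WT replicate 1 was its highest library and the other WT libraries lay below every mutant (log2 difference 0.60 ± 0.31 SE; adjusted p = 0.406).

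Of the 18 measured accessory subunits of the membrane arm, 10 were higher and 8 lower in mean, and 0 passed an unadjusted p under 0.05. In the proximal part, 5 of 8 were higher and 3 lower in mean, with a median log2 difference of 0.09. NDUFS5, a small subunit on the side of the intermembrane space, had 3517, 2442, 2834 and 2032 normalized counts in WT and 1822, 2415, 2018 and 1843 in mutant libraries, overlapping through WT replicate 4 (log2 difference -0.40 ± 0.24 SE; adjusted p = 0.462). NDUFA8, another subunit of that side, had 1867 to 5528 in WT and 2696 to 5275 in mutants. NDUFC2 had the widest spread of the proximal set, from 1415 in WT replicate 1 to 231 in WT replicate 4, with 842 to 1350 in mutants. Its log2 difference of 0.94 ± 0.49 (SE; adjusted p = 0.417) had the largest standard error among members other than NDUFAF2. It dropped to 0.46 when WT replicate 4 was left out, and to 0.095 when WT replicates 3 and 4 were.

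In the distal part, 5 of 10 were higher and 5 lower in mean, with a median log2 difference of -0.04. NDUFB9, a subunit that binds the acyl carrier protein, had 6788, 5971, 6991 and 6753 normalized counts in WT and 3567, 6451, 5325 and 5392 in mutant libraries. Mutant replicate 2 alone lay inside the WT range (log2 difference -0.38 ± 0.25 SE; adjusted p = 0.487). NDUFB4 and NDUFB11 had log2 differences of -0.29 and -0.25, and their groups overlapped. The log2 differences of NDUFB5, NDUFB10, NDUFB8, NDUFB6, NDUFB1, NDUFB7 and NDUFB2 ran from -0.10 to 0.37.

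Of the 8 assembly factors with an NDUF symbol, 3 had groups that did not overlap, 2 of them higher and 1 lower in mutants. They were among the 5 such members, and 11.4% of all genes did not overlap. A count of 3 among 8 genes is too small to be read as a trait of the role. NDUFAF1, which works in the intermediate assembly complex that builds the proximal membrane arm, had 333, 465, 325 and 240 normalized counts in the WT pigs and 1020, 502, 563 and 612 in the mutant pigs. Mutant replicate 1 was the highest library by far. The log2 difference was 0.97 ± 0.30 (SE; adjusted p = 0.251), the smallest p of all 42 members, and 0.75 to 1.13 with 1 library left out. NDUFAF8, which partners NDUFAF5 in an early step of matrix arm assembly, had 278, 258, 291 and 428 normalized counts in WT and 195, 246, 206 and 175 in mutant libraries. All its mutant libraries lay below all WT libraries (log2 difference -0.59 ± 0.26 SE; adjusted p = 0.352). NDUFAF5, an enzyme that modifies a core subunit, had a log2 difference of 0.39 ± 0.34 (SE), so the partners did not share a direction in mean.

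NDUFAF7, a methyltransferase that acts during assembly, had 267, 284, 446 and 278 normalized counts in WT and 678, 388, 384 and 498 in mutant libraries, with WT replicate 3 inside the mutant range (log2 difference 0.60 ± 0.28 SE; adjusted p = 0.369). NDUFAF4, a factor of the ubiquinone-binding part, varied little in mutants. It had 215, 228, 136 and 211 in WT against 233, 252, 247 and 240, so that its groups did not overlap although the log2 difference was only 0.33 ± 0.26 (SE; adjusted p = 0.559). The groups were nearly in contact, with 228 in WT replicate 2 and 233 in mutant replicate 1. The 136 of WT replicate 3 rests on 28 reads. NDUFAF6 and NDUFAF3 had log2 differences of 0.68 and 0.41. NDUFAF2, a factor bound to a late intermediate, had the fewest reads of all members, 34 to 77 per library and only 3 in WT replicate 3, and its log2 difference of -0.49 ± 0.65 (SE) is the least precise.

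Assembly factors with other symbols were described for comparison. Of 14 listed, 13 were measured, with 12 higher and 1 lower in mean, a median log2 difference of 0.40, and 0 called in limma, DESeq2 or the authors' deposited table. Of the partners of NDUFAF1 in its complex, ACAD9, TMEM126B and ECSIT had log2 differences of 0.58, 0.59 and 0.42, with overlapping groups. Another partner in that complex, TMEM186, was the one factor with a lower mean, at -0.28, so the partners did not all share a direction.

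NDUFA4, named as a complex I subunit but now counted as a subunit of cytochrome c oxidase, had 14345, 10292, 10774 and 7488 normalized counts in WT and 13510, 12443, 9836 and 9359 in mutant libraries. The groups overlapped (log2 difference 0.09 ± 0.28 SE; adjusted p = 0.884). Its relative NDUFA4L2, a hypoxia-induced gene, had 684, 169, 693 and 296 in WT and 516, 333, 348 and 315 in mutant libraries. Its WT values fell into a high and a low pair on either side of the mutants (log2 difference -0.08 ± 0.45 SE). Without the NDUFA4 family the other 40 members had a median log2 difference of 0.25.

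The WT pigs differed widely among themselves. WT replicate 1 was the highest of the 8 libraries for 26 of 42 members (61.9%, against 11.9% of all genes tested), and WT replicate 4 was the lowest for 22 (52.4%, against 20.1%). The score of the 42, the mean over members of the centred log2 level, was 0.47, -0.09, -0.20 and -0.54 in the WT pigs and -0.10, 0.19, 0.16 and 0.10 in the mutant pigs. All mutant scores lay between WT replicates 1 and 3. The 42 genes together made up 1.34%, 0.949%, 0.747% and 0.755% of the nuclear reads in the WT pigs and 0.951%, 1.21%, 1.13% and 1.08% in the mutant pigs, again with the mutants inside the WT range. Across WT libraries the highest level of a member was a median of 2.23-fold its lowest, against 1.53-fold across mutants. The log2 SD was larger in WT for 36 members (85.7%), a share close to the 84.3% of all genes.

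**Figure D3:**
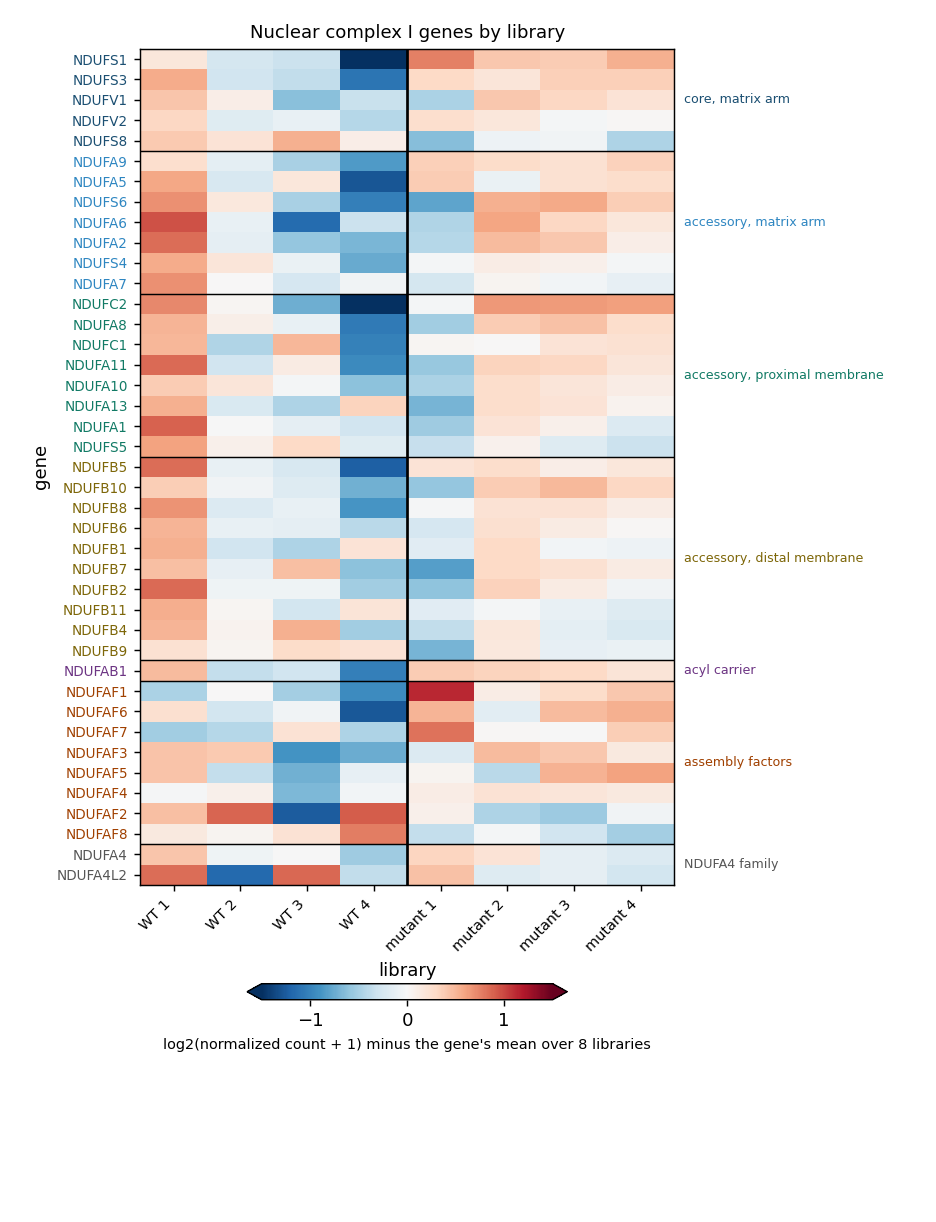
Centred log2 level of 41 of the 42 genes (rows, grouped by role) in each of the 8 libraries (columns), where red is above and blue below the gene's mean over all libraries and values past 1.5 share the end colours. WT 1 is red in most rows and WT 4 blue in most, while mutant 2 to 4 stay pale and alike.

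The assembly factors departed from the matrix and membrane subunits, whose scores shared their highest library, WT replicate 1, and their lowest, WT replicate 4. In WT replicate 1 all 8 proximal and 7 of 10 distal membrane subunits were at their highest, but 0 of 8 assembly factors were. Of the matrix arm, 6 of 7 accessory and 3 of 6 core subunits were. The scores of the assembly factors in WT replicates 1 and 3, 0.08 and -0.46, lay near those of all genes, 0.11 and -0.54. In WT replicate 4 they did not (-0.24, against 0.02). Assembly factors also had low levels, with means of 40.1 to 507 normalized counts. Mutant replicate 1 was the lowest mutant for 7 of 8 proximal and 8 of 10 distal membrane subunits and the highest mutant for none of these 18. It was the highest mutant for NDUFS1, NDUFAF1, NDUFAF7, NDUFAB1, both NDUFA4 genes and 4 others. Over all 42 members it was the highest mutant for 23.8%, against 38.3% of all genes tested, and the lowest for 57.1%, against 36.5%. For example, NDUFB7 had 938 normalized counts in mutant replicate 1 and 1822 to 2053 in mutant replicates 2 to 4. The score of the proximal membrane subunits was -0.39 in mutant replicate 1 and 0.12 to 0.27 in the other mutants, whereas that of the assembly factors was 0.27 and -0.03 to 0.20. Mutant replicates 2 to 4 lay close together, with a median log2 SD of 0.11 over the members against 0.21 over all genes.

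**Figure D4:**
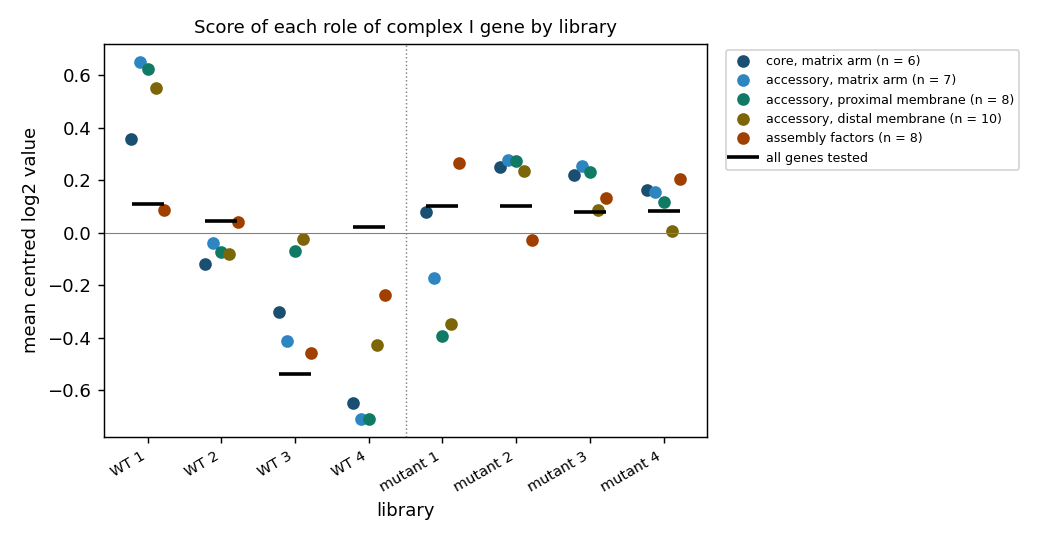
Mean centred log2 level (vertical axis) of 5 roles of complex I genes in each library, with all genes tested as black bars. Matrix and membrane subunits are highest in WT 1 and lowest in WT 4, and mutant 1 separates its assembly factors, at 0.27, from its membrane subunits, at -0.39 and -0.35.

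Marker levels of other cell types also differed between these libraries. WT replicate 4, lowest for most members, had the highest summed normalized counts of endothelial markers (35670, against 6593 to 18280 in the other WT and 14598 to 23099 in mutant libraries) and of macrophage markers (3823, against 522 to 1381 and 1022 to 3057). Its smooth muscle and pericyte markers summed to 31717, second to WT replicate 3 with 33064. All 5 markers of each list were in the table and none was at 0 in every library. Its summed cardiomyocyte markers, 516536, lay inside the WT range, but their mean centred log2 score, -0.29, was the lowest of the 8 libraries (-0.19 to 0.36 in the others). Its fibroblast markers, 6560, were the lowest too. Erythroid markers (2 of 3 in the table) summed to 49.7 in WT replicate 4, against 16889 to 30916 in WT replicates 1 to 3 and 2466 to 2914 in mutants. Neutrophil markers (3 of 4) summed to 2198 in WT replicate 2 and to 14.1 to 319 elsewhere. Atrial and conduction markers (2 of 3, of which only 1 met the minimum count) were highest in WT replicate 1, with 3761, and mutant replicate 2, with 4129. These were the libraries with the highest complex I score of their groups. The part of these features in the complex I levels was not tested.

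The median log2 difference of the members stayed positive with any 1 library left out in limma, but its size varied. Without WT replicate 4 it was 0.018, below the 0.11 of all genes, and in DESeq2 it was then -0.0084, against 0.018 for all genes. Without WT replicates 3 and 4 together it was -0.16 in limma, against 0.013 for all genes, with 15 members higher and 27 lower. Without WT replicate 1 it was 0.42, against 0.15 for all genes, with 35 members higher and 7 lower. The number of members whose groups did not overlap then went from 5 to 12, of which 10 were higher (23.8%, against 11.1% of all genes with that library left out) and 2 lower (4.76%, against 9.31%). Without that library limma still called 0 members. DESeq2 then called 5 as higher (11.9%, against 2.85% of all genes), among them NDUFAB1 with an adjusted p of 0.0366, NDUFA9 with 0.0380, NDUFS1 with 0.0408 and NDUFS3 with 0.0433. Without WT replicate 2 DESeq2 called NDUFAF1 alone (log2 difference 1.18, adjusted p = 0.0281; 2.38% of members, against 1.81% of all genes). With each of the other 6 libraries left out it called 0. Over all 8 of these fits the adjusted p ran from 0.0366 to 0.637 for NDUFAB1, from 0.0380 to 0.563 for NDUFA9, from 0.0408 to 0.403 for NDUFS1, from 0.0433 to 0.740 for NDUFS3 and from 0.0281 to 0.242 for NDUFAF1. These DESeq2 fits were chosen after the data were seen.

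**Figure D5:**
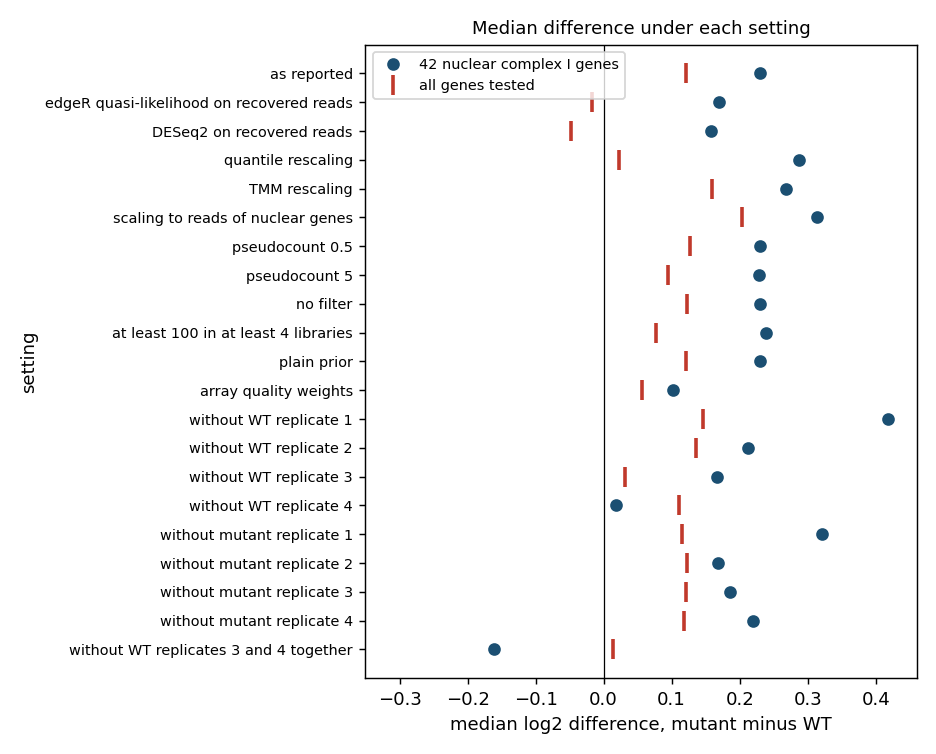
Median log2 difference (horizontal axis) of the 42 genes (blue points) and of all genes tested (red bars) under each setting (rows). The members' median runs from -0.16 without WT replicates 3 and 4 together to 0.42 without WT replicate 1, and lies at 0.018 without WT replicate 4.

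Levels were also taken relative to the median member of the same library, which sets aside how much complex I RNA a library held as a whole. On this log2 scale, chosen after the data were seen, 5 members were higher in every mutant than in any WT library (11.9%, against 2.74% of all genes treated alike) and 0 were lower in every mutant (against 1.71%). They were NDUFS1, NDUFC2, NDUFA9, NDUFAB1 and NDUFS3. The median comes from these same 42 members, so subtracting it removes variation that they share and adds it to other genes. Before this step the shares of all genes were 6.17% higher and 5.22% lower. The gap between 11.9% and 2.74% thus follows in part from the scale and adds no support. NDUFS1 stood 0.62, 1.00, 0.90 and 0.28 above the median member in the WT pigs and 2.29, 1.31, 1.43 and 1.61 above it in the mutant pigs. NDUFA9 stood 0.15 to 0.56 above it in WT and 0.63 to 1.34 in mutants. NDUFS8, in contrast, stood 0.74 to 1.94 above it in WT and 0.52 to 0.89 in mutants, overlapping through WT replicate 1. NDUFAB1 lies next to the median in every WT library, so its small WT spread follows in part from the scale itself.

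The 7 complex I subunits of the mitochondrial genome, whose products join these nuclear subunits in the membrane arm, all had a lower mean log2 level in mutants (median log2 difference -2.48, with 0 called in limma). DESeq2 called all 7 as lower, against 384 of all 11660 genes tested. The authors' deposited table also called all 7 as lower, against 382 of these genes. The groups did not overlap for ND1 and ND2 and overlapped for the other 5. Their scores were 4.25 and 1.67 in WT replicates 3 and 4 and -0.16 and -0.50 in WT replicates 1 and 2, so the WT library richest in nuclear complex I transcripts was not the one richest in the mitochondrial ones. Nuclear subunits of complexes II to V, 39 in number, had 21 members higher and 18 lower and a median log2 difference of 0.08, with 0 called. Their scores, 0.46, 0.01, 0.01 and -0.62 in WT and -0.05, 0.20, 0.04 and -0.05 in mutant libraries, had the same highest and lowest library as the nuclear complex I genes. The difference between these sets was not tested.

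Some members may share reads with other loci, since counting by strand is not stated. In the RefSeq annotation of Sscrofa11.1, used here for names only, 12 of the 42 loci overlap another gene. NDUFAF1 overlaps NUSAP1, whose normalized counts (158 to 654) were of similar size but had a log2 difference of -0.57. NDUFAF7 overlaps PRKD3, which had 184 to 517 normalized counts and a log2 difference of 0.69, close to that of NDUFAF7, and reads of the pair cannot be told apart here. NDUFA7 overlaps the ribosomal protein gene RPS28, which had 2239 to 9879 normalized counts and a log2 difference of -1.20. NDUFB10 overlaps RPL3L and a further ribosomal protein gene. NDUFB11 overlaps RBM10, which had 757 to 2471 normalized counts and a log2 difference of -0.35, against -0.25 for NDUFB11. NDUFA4 has a pseudogene of the same name, so its level is uncertain to that extent. NDUFS1, NDUFS8, NDUFA9, NDUFAB1 and NDUFAF8 overlap no other annotated gene there.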

How the data were processed

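Left ventricular RNA of 4 WT and 4 mutant pigs was sequenced from oligo-dT selected libraries, per the labels' protocols. The deposited table gives, per the file headers and values, the signal of each gene as counts normalized by 1 size factor per library, beside the authors' mean signal, log2 fold change, with standard error, the Wald score and the p-value before and after adjustment. The submitters' processing notes name DESeq2 and the human build GRCh38. No coordinates are printed, since aligner, counter and annotation are nowhere named in the sources used here. All values (100%, within 1e-06 reads) were whole multiples of 1 read, so whole reads were recovered. Of 14720 rows, 2 that name an annotation source (0.392% to 0.853% of reads) were left out.

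All 11660 genes with at least 10 in at least 4 libraries were fitted with limma 3.58.1 (R 4.3.3, trended, robust prior) on log2(normalized count + 1), which understates differences of low genes. The p-values were adjusted by Benjamini-Hochberg over all of them, with 0.05 as threshold. The fit was tested on simulated data. Those data had the same spread in both groups, unlike the libraries here, where WT spread more. edgeR 4.0.16 and DESeq2 1.42.0 on recovered reads, quantile, TMM and nuclear-read scaling, pseudocounts of 0.5 and 5, no filter, a minimum of 100, a plain prior, quality weights and left-out libraries were alternatives. Members, roles, lists and tests were chosen with earlier results of these data known. The rule for named members took the 6 with the smallest p in each direction, the highest mean of each role, NDUFA4, NDUFA4L2 and NDUFAB1. Other members are named with their values outside this rule. One member is included in counts and medians but is not reported here by name. Precision is limited by 4 libraries a group and by the reads of WT replicate 3.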

Additional observations from a re-analysis of the deposited data

Results flagged for a closer look

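In 4 of 84 groups of 4 libraries (each of 42 members in WT and in mutants), 1 library lay far from the other 3 by a test of its gap against the range. Chance flags about 1 in 20 groups, so this number is near what chance gives. NDUFAF7 had 446 normalized counts in WT replicate 3, where 1 read is worth 4.84 normalized counts, against 267 to 284 in the other WT libraries. NDUFAF6 had 215 in mutant replicate 2 against 335 to 348 in the other mutants. Mutant replicate 1 stood apart in the other 2, with 842 for NDUFC2 against 1318 to 1350, and with 516 for NDUFA4L2 against 315 to 348.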

How the results depend on the processing

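Over the reported setting and its 20 listed alternatives, 13 members had a positive and 7 a negative log2 difference throughout, and 22 had both signs. The alternatives share libraries and are not independent. limma, edgeR and DESeq2 on all 8 libraries called 0 members, and so did limma with 1 library or WT replicates 3 and 4 left out. DESeq2 with 1 library left out called 0 to 5, namely 5 without WT replicate 1 and 1 without WT replicate 2. The number at an unadjusted p under 0.05 was 6, 2 to 9 in limma with 1 library left out, 2 to 10 in DESeq2 with 1 left out, and 3 without WT replicates 3 and 4 (7.14%, against 16.0% of all genes). By scaling it was 9 (6 higher and 3 lower; 21.4%, against 16.3% of all genes) after quantile rescaling and 8 (7 higher and 1 lower; 19.0%, against 13.7%) after scaling to nuclear reads, against 4 higher and 2 lower (14.3%, against 13.9%). The 9 without WT replicate 1 were 21.4%, against 18.8% of all genes. Members whose groups did not overlap numbered 5, 5 to 12 with 1 library left out (12 without WT replicate 1, 28.6% against 20.4% of all genes), 8 after quantile rescaling (19.0% against 11.9%) and 10 without WT replicates 3 and 4 (23.8% against 29.2%). Fewer libraries leave more genes without overlap. The median log2 difference was 0.23, 0.018 to 0.42 with 1 library left out and -0.16 without WT replicates 3 and 4. The median of all genes was 0.12 in limma, 0.022 after quantile rescaling, 0.16 after TMM, 0.20 after nuclear scaling and -0.05 in DESeq2, and the members' median lay above it by 0.11, 0.26, 0.11, 0.11 and 0.21.

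Of the 16 members the naming rule chose, 12 kept their direction. NDUFA4 (0.09) was -0.18 with quality weights, -0.066 to 0.25 with 1 library left out (negative only without WT replicate 4) and -0.12 with WT replicates 3 and 4 left out. NDUFA4L2 (-0.08) was 0.00085 with nuclear scaling, 0.0026 with quality weights, -0.49 to 0.19 with 1 library left out (0.18 without WT replicate 1 and 0.19 without WT replicate 3) and 0.12 with WT replicates 3 and 4 left out. NDUFA8 (0.28) was -0.021 to 0.51 with 1 library left out (negative only without WT replicate 4) and -0.16 with WT replicates 3 and 4 left out, and NDUFV1 (0.22) was -0.15 without both and 0.049 to 0.41 with 1 library left out, lowest without WT replicate 3. Leaving out 1 library moved NDUFS1 to 0.66 to 1.27, NDUFA9 to 0.43 to 0.80, NDUFAB1 to 0.36 to 0.86, NDUFS8 to -0.70 to -0.50, NDUFAF8 to -0.68 to -0.43, NDUFS5 to -0.53 to -0.26 (nearest 0 without WT replicate 1), NDUFB9 to -0.50 to -0.21 (without mutant replicate 1), NDUFB11 to -0.38 to -0.11 (without WT replicate 1) and NDUFB4 to -0.51 (without WT replicate 4) to -0.16 (without WT replicate 3). The causes of these shifts were not tested. No paired analysis was possible because the pigs of the 2 groups share no numbers in the labels.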

Other observations

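Of the genes listed as markers of mitochondrial content, 10 were measured, with 8 higher and 2 lower in mutants (median log2 difference 0.29, 0 called in limma). The mitochondrial chaperone gene HSPD1 had 6091, 4218, 2054 and 1304 normalized counts in the WT pigs and 4660, 6005, 8195 and 8977 in the mutant pigs, in order of replicate (log2 difference 1.23 ± 0.47 SE; adjusted p = 0.311), with overlapping groups. Citrate synthase, CS, had 7709, 5459, 5213 and 2367 in WT and 11479, 6619, 7720 and 8294 in mutants. The list's score was lowest in WT replicate 4, at -0.95, the library that was also lowest for most nuclear complex I genes. TIMMDC1, a complex I assembly factor, had 0 reads in WT replicate 3, which allows up to 3 reads or 14.5 normalized counts there, against 129 to 285 normalized counts in the other 7 libraries.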
